A study of Homo sapiens with 11 samples.

Results

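The glutathione S-transferase (GST) genes GSTM1, GSTM2, GSTM3, GSTM4, GSTM5, GSTP1, GSTA4, GSTK1, GSTO1 and GSTZ1 were followed through nickel exposure and its end. The 10 genes were chosen by symbol, and all 10 were present among the 28252 genes of the RT4 RNA-Seq files and among the 26237 promoters of the BEAS-2B H3K4me3 files. RT4 is a line from a human urinary bladder tumour, and BEAS-2B is a human lung (bronchial) epithelial line. In both lines untreated cells (UT) were set beside nickel-exposed cells (Ni-E), grown in 100 μM NiCl2 for 6 weeks, and nickel-washed-out cells (Ni-W), which had the same exposure and then nickel-free medium. RT4 Ni-W cells spent 2 weeks in nickel-free medium, whereas the BEAS-2B Ni-W cells were 1 population grown from a single colony and kept for over 6 months. RT4 had 2 libraries in each of the 3 groups, and BEAS-2B had 1 table of H3K4me3 values for each condition, treated here as 1 library, so that a change in BEAS-2B Ni-W cells cannot be told apart from a property of that colony or of that library.

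GST enzymes join the tripeptide glutathione to reactive compounds, which makes these more soluble and lets transporters carry them out of the cell. The mu (GSTM), pi (GSTP) and alpha (GSTA) classes act on a wide range of electrophiles, and GSTA4 acts on 4-hydroxynonenal, a product of lipid peroxidation. GSTK1 is the kappa class enzyme of mitochondria and peroxisomes, GSTO1 has thioltransferase and dehydroascorbate reductase activity, and GSTZ1 (maleylacetoacetate isomerase) works in tyrosine breakdown. Several GST genes are targets of NRF2, a factor that binds antioxidant response elements. GSTM1 is missing from the genomes of many people. H3K4me3 is a histone mark found at the promoters of active genes.

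The 5 GSTM genes lay within 84.9 kb of chromosome 1 in the RefSeq annotation of GRCh38.p14. In order along the chromosome they were GSTM4 (chr1:109656099-109667727), GSTM2 (chr1:109668057-109683997), GSTM1 (chr1:109687817-109693745) and GSTM5 (chr1:109711751-109718268), all on the + strand, and GSTM3 (chr1:109733937-109741038) on the − strand. GSTP1 lay at chr11:67583812-67586653, GSTA4 at chr6:52977953-52995284, GSTK1 at chr7:143263441-143269115, GSTO1 at chr10:104254173-104267455 and GSTZ1 at chr14:77321036-77331597. For GSTM5 and GSTO1 the start of transcription used (109712251 and 104254892) lay inside the gene interval given above, not at its first base. The 250 bases before the start of transcription in RefSeq are given, read 5′ to 3′ on the strand of the gene, for 6 members on which the results turn. These are the closely related promoters of GSTM1, GSTM2 and GSTM5, which differed in H3K4me3 in BEAS-2B cells, those of GSTM3 and GSTM4, whose RNA was lower in RT4 Ni-E cells, and that of GSTP1, which carried H3K4me3 in BEAS-2B cells while its RNA was at 0 in RT4 cells. Capitals mark matches on either strand to TGACNNNGC (the core of the antioxidant response element), to TGANTCA (AP-1 site) and to GGGCGG (GC box, seen as CCGCCC on the other strand).
GSTM1 (chr1:109687567-109687816, + strand): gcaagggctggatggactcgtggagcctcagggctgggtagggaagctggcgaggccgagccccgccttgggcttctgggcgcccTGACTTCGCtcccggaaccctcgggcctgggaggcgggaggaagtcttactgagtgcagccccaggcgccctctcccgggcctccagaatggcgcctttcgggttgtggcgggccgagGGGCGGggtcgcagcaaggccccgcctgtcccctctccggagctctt
GSTM2 (chr1:109667807-109668056, + strand): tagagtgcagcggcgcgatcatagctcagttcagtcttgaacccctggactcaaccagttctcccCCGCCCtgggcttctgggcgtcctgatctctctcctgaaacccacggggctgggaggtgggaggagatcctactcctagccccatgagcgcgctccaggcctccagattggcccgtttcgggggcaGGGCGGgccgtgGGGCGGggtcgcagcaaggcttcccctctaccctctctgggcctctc
GSTM5 (chr1:109712001-109712250, + strand): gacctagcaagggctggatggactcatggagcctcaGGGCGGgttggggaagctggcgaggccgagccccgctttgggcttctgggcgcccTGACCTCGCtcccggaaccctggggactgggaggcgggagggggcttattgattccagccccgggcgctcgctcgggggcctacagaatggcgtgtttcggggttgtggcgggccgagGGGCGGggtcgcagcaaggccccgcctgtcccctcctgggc
GSTM3 (chr1:109741039-109741288, - strand): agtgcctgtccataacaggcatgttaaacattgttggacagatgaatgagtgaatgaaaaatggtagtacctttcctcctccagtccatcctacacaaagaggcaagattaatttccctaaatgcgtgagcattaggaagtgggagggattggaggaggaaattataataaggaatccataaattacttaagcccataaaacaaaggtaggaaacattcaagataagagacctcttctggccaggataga
GSTM4 (chr1:109655849-109656098, + strand): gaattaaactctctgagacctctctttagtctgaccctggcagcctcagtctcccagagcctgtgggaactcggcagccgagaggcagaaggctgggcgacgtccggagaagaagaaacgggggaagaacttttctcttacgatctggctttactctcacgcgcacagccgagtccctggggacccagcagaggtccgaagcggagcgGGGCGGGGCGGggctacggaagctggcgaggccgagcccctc
GSTP1 (chr11:67583562-67583811, + strand): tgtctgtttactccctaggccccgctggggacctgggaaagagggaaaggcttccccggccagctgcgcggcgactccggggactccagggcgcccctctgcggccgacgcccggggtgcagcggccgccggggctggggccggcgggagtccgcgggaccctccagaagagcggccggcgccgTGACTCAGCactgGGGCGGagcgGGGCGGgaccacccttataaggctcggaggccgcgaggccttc

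In an alignment of these upstream sequences, GSTM1 and GSTM5 were identical at 221 of 243 aligned bases (91.0%), and GSTM1 and GSTM2 at 185 of 236 (78.4%). The antioxidant response element core was found upstream of 5 of the 10 members (GSTM1, GSTM5, GSTP1, GSTA4 and GSTO1), and in 11% of 27303 promoters of the same length. In GSTP1 it spanned the bases 66 to 58 before the start and overlapped the AP-1 match, which was present in no other member and in 6.6% of all promoters. The GC box was found in 8 of 10 members against 42.3% of promoters, and was not among the letters of the GSTM3 and GSTA4 windows. Other motifs were searched too. The metal response core was found in 4 of 10 members as TGCACNC (9.74% of promoters) and in 1 as TGCGCNC (16.9%). The hypoxia response core was found in 0 as ACGTG (18.7%) and in 4 as GCGTG (31.9%). CCAAT was found in 3 (33%) and TATAA in 3 (19.6%). Within these 250 bases GSTM3 had 1 CpG. GSTM1 had 19, GSTM2 14, GSTM4 18, GSTM5 19 and GSTP1 28, and the median of all promoters was 11. Over the 4 kb around the start GSTM3 did not stand apart from its cluster, with 114 CpG. GSTM4 had 112, GSTM1 94, GSTM2 87 and GSTM5 87 in that wider window. A match is a run of letters, and binding was not measured.

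In RT4 cells, total RSEM estimated counts ranged from 17075833 to 27736454 in the 6 libraries. All 11 urothelial and all 5 epithelial markers had a mean of at least 1 TPM, a share of all transcripts corrected for transcript length. The summed urothelial level was 1248 and 1261 TPM in Ni-E cells and 1557 to 1633 TPM in the others. Single urothelial markers moved in both directions under this sum. KRT20 had 11.1 and 11.3 TPM in UT, 0.25 and 0.11 in Ni-E, and 1.59 and 1.37 in Ni-W cells. UPK1A had 70.6 and 92.5, 16.1 and 18.5, and 39.6 and 44.4 TPM in the same order. UPK3B was higher, with 293 and 313, 391 and 406, and 368 and 420 TPM. Fibroblast, endothelial and hepatocyte markers summed to at most 5.13 TPM and blood markers to 7.31 to 13.5 TPM. COL1A2, DCN, CD3E, HBB and ALB were at 0 in all 6 libraries. CD68 made up most of the blood sum. It had 7.33 and 7.3 TPM in UT, 12.97 and 10.55 in Ni-E, and 13.43 and 13.27 in Ni-W cells. COL3A1 had 0.84 and 0.26, 4.13 and 2.18, and 4.55 and 1.48 TPM in the same order. VWF had 1.88 and 0.91, 0.96 and 0.57, and 1.64 and 0.8 TPM. The other markers of these lists stayed below 1 TPM in every library. The part of these differences in the results was not tested. In bulk RNA, fewer cells with a transcript and less transcript per cell cannot be told apart.

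GST expression in RT4 cells was carried by a few members. GSTO1 was the highest, with 243 and 278 TPM in UT, 296 and 347 TPM in Ni-E and 277 and 365 TPM in Ni-W cells. GSTK1 followed with 157 and 185, 160 and 180, and 162 and 205 TPM in the same order. Every GSTO1 value lay above every GSTK1 value. GSTM3, GSTM4 and GSTZ1 lay between 22.9 and 58.9 TPM over the 6 libraries, and in UT cells GSTM3 and GSTM4 overlapped while both lay above GSTZ1. GSTA4 ranged from 1.44 to 5.58 TPM and GSTM2 from 0.36 to 1.25 TPM. TPM values are per transcript length and therefore allow these comparisons between genes.

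GSTP1, the pi class enzyme that is prominent in many epithelia, had an estimated count of 0 in all 6 RT4 libraries. A limit of 3 counts corresponds to 0.231 to 0.454 TPM for this gene, according to the library. Its neighbour NDUFV1, a subunit of respiratory complex I, had 141 to 172 TPM, and CABP2 on the other side was at 0. GSTM5 was also at 0 in all 6 libraries, with a limit of 0.130 to 0.255 TPM. GSTM1 had 0 and 1 counts in UT, 0 and 2 in Ni-E and 3 and 2 in Ni-W cells, which is at or under the limit of 3 counts, so that no fold change is given. Of the 50-base stretches of GSTM1 transcripts in GENCODE, 49.7% also occur in transcripts of other GST genes, most often GSTM2, so that its few counts are uncertain. The share was 12.2% for GSTM2, 10.9% for GSTM4 and 6.42% for GSTM5, while GSTM3, GSTP1, GSTA4, GSTK1 and GSTZ1 shared none.

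**Figure D1:**
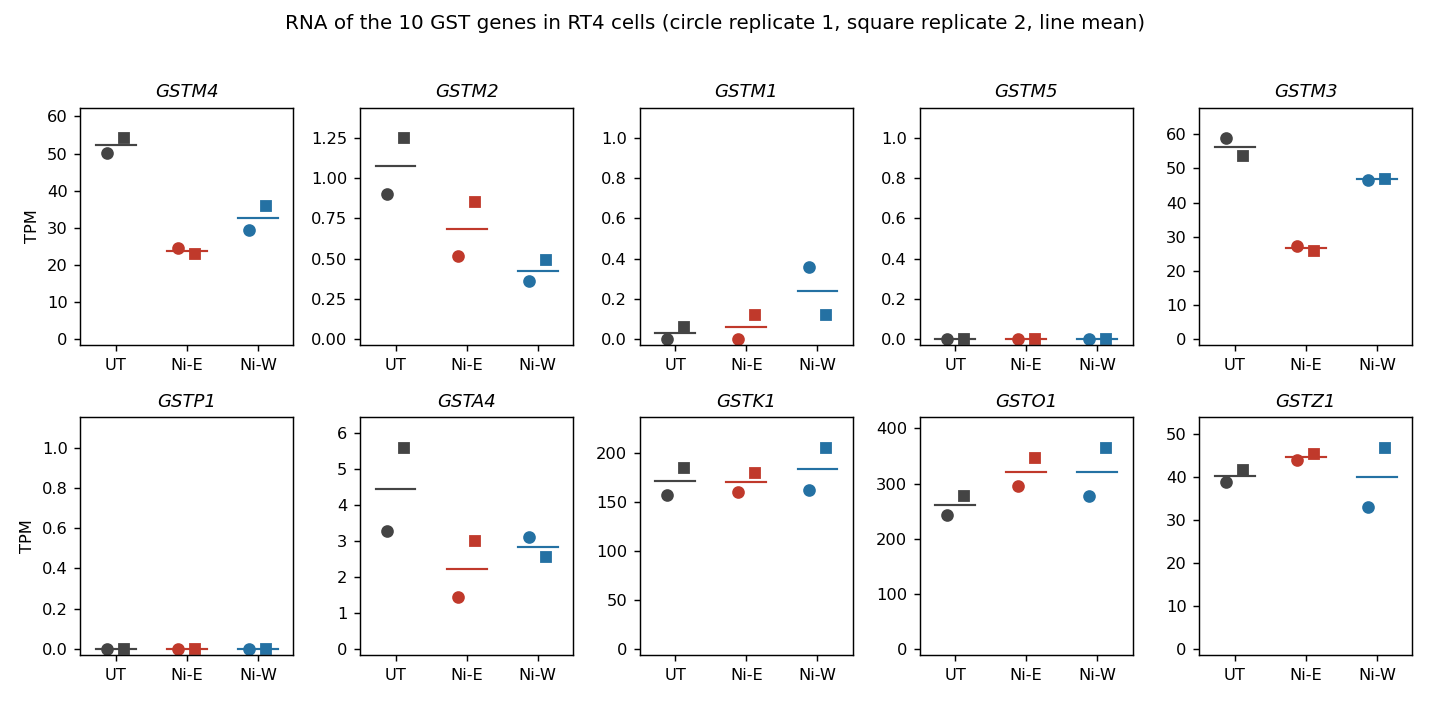
TPM of the 10 GST genes (y axis, a separate scale for each gene) in the 3 RT4 groups, with circles for replicate 1, squares for replicate 2 and lines for the mean. GSTM3 and GSTM4 lie at 22.9 to 27.3 TPM in Ni-E cells and at 50.2 to 58.9 TPM in UT cells, while GSTM5 and GSTP1 lie at 0 in all 6 libraries.

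Nickel exposure was compared with UT cells to ask which members differed during exposure. GSTM3, a mu class enzyme, had 58.9 and 53.7 TPM in UT cells (2287 and 3434 counts) and 27.3 and 25.8 TPM in Ni-E cells (1063 and 1705 counts). GSTM4 had 50.2 and 54.2 TPM in UT cells (594 and 1061 counts) and 24.6 and 22.9 TPM in Ni-E cells (291 and 460 counts). For both genes the Ni-E libraries lay below the UT libraries without overlap. The log2 fold change was -1.09 (SE 0.198) for GSTM3, with an adjusted p of 0.0618, and -1.17 (SE 0.284) for GSTM4, with an adjusted p of 0.132 (edgeR quasi-likelihood test, Benjamini-Hochberg adjustment over 14502 genes). At an adjusted p below 0.05 and at least a 1.5-fold change, 0 of the 7 members tested were called, where 2.17% of all genes tested were called (1.45% higher and 0.71% lower). On simulated counts for this comparison the same fit recovered 0 of 200 genes changed 2-fold. Its 0 calls therefore cannot decide on changes near 2-fold. The same model also served the other comparisons without the block. At an unadjusted threshold of 0.05, with no fold threshold, 2 of the 7 (GSTM3 and GSTM4) passed, where 1773 of all 14502 genes (12.2%) did. GSTM1, GSTM5 and GSTP1 did not pass the filter on low counts and were not tested.

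Libraries with the same replicate number deviated together. All 7 members tested were higher in replicate 2 than in replicate 1 in every group, as were 37.4% of all genes tested. For GSTA4 this shift was 1.01 in UT, 1.14 in Ni-E and 0.10 in Ni-W cells on the log2 scale. A block for the replicate number changed the calls given above. With it, GSTM3 fell by 1.09 on the log2 scale (SE 0.114, adjusted p = 9.45e-05 by edgeR) and GSTM4 fell by 1.16 (SE 0.158, adjusted p = 5.91e-04 by edgeR). The 2 members called of 7 stood beside 12.6% of all genes called with the block, 7.64% higher and 5% lower. DESeq2 without the block also called both GSTM3 (adjusted p = 9.75e-04) and GSTM4 (adjusted p = 0.0148), where it called 734 of the 15780 genes to which it gave an adjusted p (4.65%). The sum of the 5 GSTM genes was 110 and 109 TPM in UT cells and 52.4 and 49.7 TPM in Ni-E cells. The GSTM share of the summed TPM of the 10 members was 19.9% and 17.7% in UT cells, and 9.47% and 7.97% in Ni-E cells.

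The other members tested did not pass in either fit. GSTA4 had 3.26 and 5.58 TPM in UT and 1.44 and 3.0 TPM in Ni-E cells, without overlap but on 15 to 96 counts, with a log2 fold change of -1.001 (SE 0.533) and an adjusted p of 0.610 by edgeR, or 0.0574 with the block. Leaving out 1 library moved this value between -1.76 (without Ni-E replicate 2) and -0.38 (without UT replicate 2), and it was -0.54 without Ni-E replicate 1. GSTM2 had 0.90 and 1.25 TPM in UT and 0.52 and 0.85 TPM in Ni-E cells, on 5 to 20 counts, with a log2 fold change of -0.66 (SE 0.521). GSTO1 was at 0.28 (SE 0.325), GSTZ1 at 0.12 (SE 0.329) and GSTK1 at -0.03 (SE 0.320) on the same log2 scale. The median log2 fold change was -0.66 over the 7 members, which is the value of GSTM2 on its few counts, and -0.01 over all genes tested.

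In Ni-W cells, 2 weeks after exposure, GSTM3 and GSTM4 lay between the other groups. GSTM3 had 46.5 and 47.0 TPM, above both Ni-E libraries and below both UT libraries. GSTM4 had 29.3 and 35.8 TPM, also between the other groups without overlap. Against UT cells the log2 fold change was -0.30 (SE 0.195, adjusted p = 0.895 by edgeR) for GSTM3 and -0.71 (SE 0.281, adjusted p = 0.530 by edgeR) for GSTM4, and 0 of 7 members were called against 0.6% of all genes (0.503% higher and 0.0965% lower). GSTM4 alone of the 7 passed an unadjusted threshold of 0.05, as did 1323 of all genes (9.12%), and DESeq2 called 0 members and 437 genes in all (2.77%). With the replicate block GSTM4 fell by 0.72 (SE 0.155, adjusted p = 0.0127 by edgeR) and was 1 of 7 called, where 8.57% of all genes were called, 5.79% higher and 2.78% lower. GSTM3 was at -0.31 with the block (adjusted p = 0.107 by edgeR). The comparisons of Ni-E and of Ni-W cells with UT cells share the UT libraries and are not independent of each other.

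GSTM2 was lowest in Ni-W cells, at 0.36 and 0.49 TPM on 4 and 8 counts, and its log2 fold change against UT cells was -1.22 (SE 0.551, adjusted p = 0.645 by edgeR, or 0.170 with the block). GSTA4 had 3.10 and 2.56 TPM in Ni-W cells, below both UT libraries, with a log2 fold change of -0.75 (SE 0.530). GSTZ1 had 38.8 and 41.6 TPM in UT, 43.9 and 45.3 TPM in Ni-E and 33.1 and 46.8 TPM in Ni-W cells, where the Ni-W libraries spanned the other groups. GSTO1 in Ni-W cells was at 0.27 (SE 0.325), GSTK1 at 0.06 (SE 0.319) and GSTZ1 at -0.02 (SE 0.329) on the log2 scale against UT cells. The median over the 7 members was -0.30, beside 0.00 over all genes.

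Set directly against Ni-E cells, GSTM3 in Ni-W cells had a log2 fold change of 0.79 (SE 0.197, adjusted p = 0.440 by edgeR) and GSTM4 one of 0.46 (SE 0.282). edgeR without the block called 0 of 7 members and 0 of all 14502 genes, a share of 0%, while 808 genes (5.57%) had an unadjusted p below 0.05 and DESeq2 called 139 (0.947%). Of the members, GSTM3 alone passed the unadjusted threshold, and DESeq2 called 0. With the block GSTM3 rose by 0.78 on the log2 scale (SE 0.114, adjusted p = 0.00302 by edgeR), 1 of 7 members beside 4.52% of all genes called, 2.72% higher and 1.8% lower. GSTM4 did not pass with the block (0.43, SE 0.160, adjusted p = 0.171 by edgeR). GSTM3 and GSTM4 were at a TPM ratio of 1.17 and 0.991 in UT, 1.11 and 1.13 in Ni-E, and 1.59 and 1.31 in Ni-W cells.

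GSTM3 had the smallest p of the edgeR test over the 3 groups among the members (0.00453, unadjusted). The 3 genes nearest to it in the pair of log2 fold changes against UT cells, by Euclidean distance over 14502 genes, were MB21D2 (distance 0.00872), MYEF2 (0.0136) and IL1R1 (0.0238). Their adjusted p by edgeR in Ni-E against UT cells was 0.123, 0.197 and 0.122, and none was called in either comparison with UT cells. They were picked by this distance, and a shared response with GSTM3 was not tested.

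**Figure D2:**
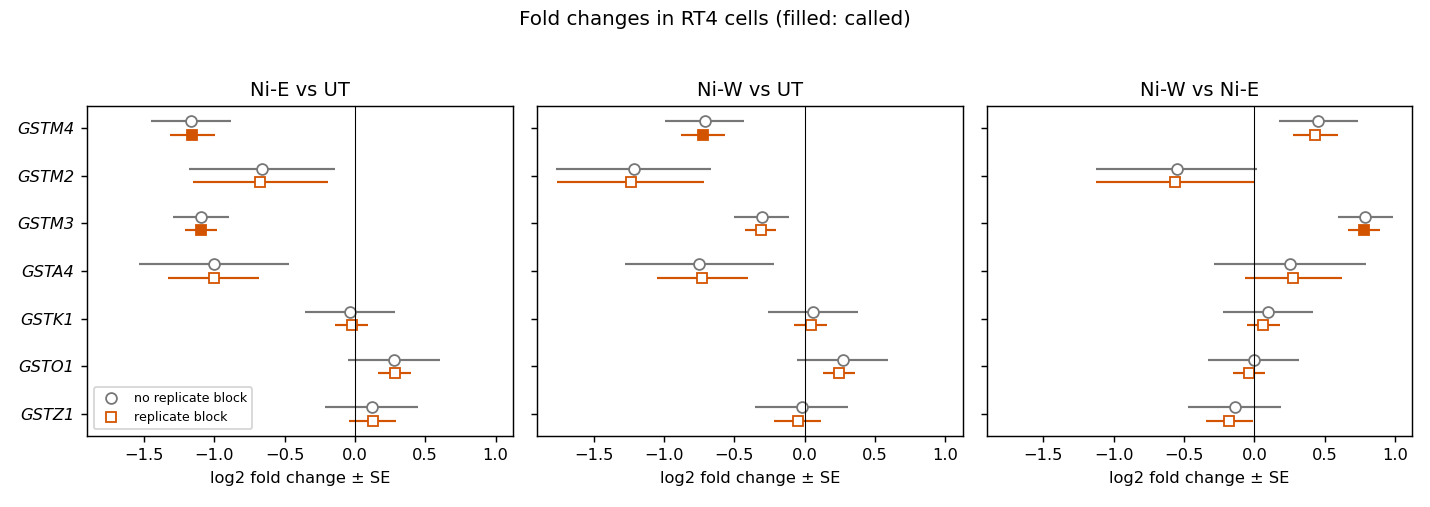
Log2 fold change with its SE (x axis) of the 7 members tested (y axis) in the 3 comparisons of RT4 groups, without (circles) and with (squares) the replicate block, where filled symbols were called. The estimates hardly differ between the fits, but GSTM3 and GSTM4 in Ni-E cells, GSTM4 in Ni-W against UT cells and GSTM3 in Ni-W against Ni-E cells were called with the block.

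The other genes of glutathione metabolism were described from lists of 63 genes, of which 46 were tested in RT4 cells. Without the block 2 of 46 were called higher in Ni-E than in UT cells and 0 were called lower, beside 1.45% higher and 0.71% lower of all genes. These were SLC7A11, the cystine importer that supplies glutathione synthesis, with 3.09 and 2.52 TPM in UT and 9.80 and 8.70 TPM in Ni-E cells (log2 1.72, SE 0.236, adjusted p = 0.0321 by edgeR), and GPX8, a glutathione peroxidase family member of the endoplasmic reticulum, with 1.08 and 0.78 TPM in UT and 4.18 and 4.42 TPM in Ni-E cells (log2 2.22, SE 0.255, adjusted p = 0.0226 by edgeR). GGT1, which breaks down extracellular glutathione, was the 1 gene of the 46 called in Ni-W against UT cells, where 0.503% of all genes were called higher, with 2.45 and 1.82 TPM in UT and 8.25 and 8.64 TPM in Ni-W cells (log2 1.98, SE 0.259, adjusted p = 0.0497 by edgeR). With the block 9 of 46 were called higher and 3 lower in Ni-E than in UT cells, where 7.64% of all genes were called higher and 5% lower.

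The genes called with the block fell on several steps of the pathway. Those higher in Ni-E than in UT cells included SLC7A11 in supply, GGT1 and CHAC1 in breakdown, GPX2 and GPX8 among the peroxidases, TXNRD1 in the NRF2 system, GSTCD, which carries a GST C-terminal domain, and FAH, which acts after GSTZ1 in tyrosine breakdown. Those lower included GLRX, a glutaredoxin, and the transporter ABCG2. CHAC1, which degrades glutathione inside the cell, had 7.81 and 8.0 TPM in UT, 27.3 and 27.5 TPM in Ni-E and 21.8 and 31.5 TPM in Ni-W cells. In Ni-W against UT cells 6 were higher with the block (SLC7A11, GLRX, GGT1, CHAC1, GPX8 and TXNRD1) and ABCC4 was lower, beside 5.79% higher and 2.78% lower of all genes. GLRX thus lay on both sides of UT, with 13.6 and 18.9 TPM in UT, 8.66 and 11.2 TPM in Ni-E and 29.9 and 25.2 TPM in Ni-W cells. In Ni-W against Ni-E cells 3 were called higher (GLRX, GGT1 and ABCG2) and 4 lower (GCLC, SLC7A11, ABCC4 and TXNRD1), beside 2.72% and 1.8% of all genes. The median log2 fold change over the 46 genes was 0.20 in Ni-E and 0.05 in Ni-W against UT cells without the block.

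In BEAS-2B cells, H3K4me3 was given as RPKM, reads corrected for window length and library depth, in the 4 kb around each start of transcription. Library depths of 28385721 (UT), 37493943 (Ni-E) and 29933520 (Ni-W) were recovered from the step between RPKM values. Values have 95% Wilson intervals from the reads, which cover counting error only, and with 1 library for each condition no test was made. Because the median promoter fell from 1.57 RPKM in UT to 1.39 in Ni-E and 1.12 in Ni-W cells, ratios were taken after division by the library median.

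The GSTM1 promoter lost most of its reads in Ni-W cells. It had 85 reads in UT, or 0.749 RPKM with an interval of 0.605 to 0.926. Ni-E cells gave 103 reads, or 0.687 RPKM (0.566 to 0.833), and the Ni-W population gave 8 reads, or 0.067 RPKM (0.0339 to 0.132). The Ni-W interval lay below those of the other libraries. The median-scaled log2 ratio of Ni-W to UT was -2.996 (-4.26 to -1.96), a 7.98-fold lower level, and that of Ni-W to Ni-E was -3.05 (-4.30 to -2.02). In both comparisons GSTM1 had the lowest ratio of the 23802 promoters with at least 25 reads in any library. For this rank, values under 3 reads were raised to the level of 3 reads, so that promoters with fewer reads may have had a lower ratio. In the Ni-W library 6.28% of all promoters had 8 reads or fewer. A change of scaling kept the direction, with a log2 ratio of Ni-W to UT of -3.48 without scaling and -3.08 after quantile normalization, while 1 RPKM added to each value left -0.44.

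The nearest members in the cluster, GSTM2 and GSTM5, did not show such a drop. Both already had few reads in UT cells, and are therefore a weak contrast to GSTM1. GSTM2, whose end lies 3820 bases from GSTM1, had 0.22, 0.20 and 0.20 RPKM in the UT, Ni-E and Ni-W libraries (25, 30 and 24 reads), with a scaled log2 ratio of Ni-W to UT of 0.35 (-0.52 to 1.22). GSTM5 had 0.167, 0.140 and 0.167 RPKM (19, 21 and 20 reads), and did not reach 25 reads in any library. The Ni-W interval of GSTM1 (0.0339 to 0.132) lay below that of GSTM2 (0.135 to 0.298) and overlapped that of GSTM5 (0.108 to 0.258). Whether the GSTM1 DNA was still present in the Ni-W population was not tested, because the ChIP input libraries were not analysed. GSTM4 had 2.63, 2.0 and 1.495 RPKM and GSTM3 3.05, 2.85 and 1.80 RPKM, and their scaled log2 ratios of Ni-W to UT were -0.33 and -0.28. Within 2 kb of the start, 28.6% of the 50-base stretches of GSTM1 and 31.5% of those of GSTM5 occur again in the cluster, against 7.89% for GSTM2, 6.71% for GSTM4 and 0% for GSTM3, so that reads in the related promoters may be shared or lost.

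**Figure D3:**
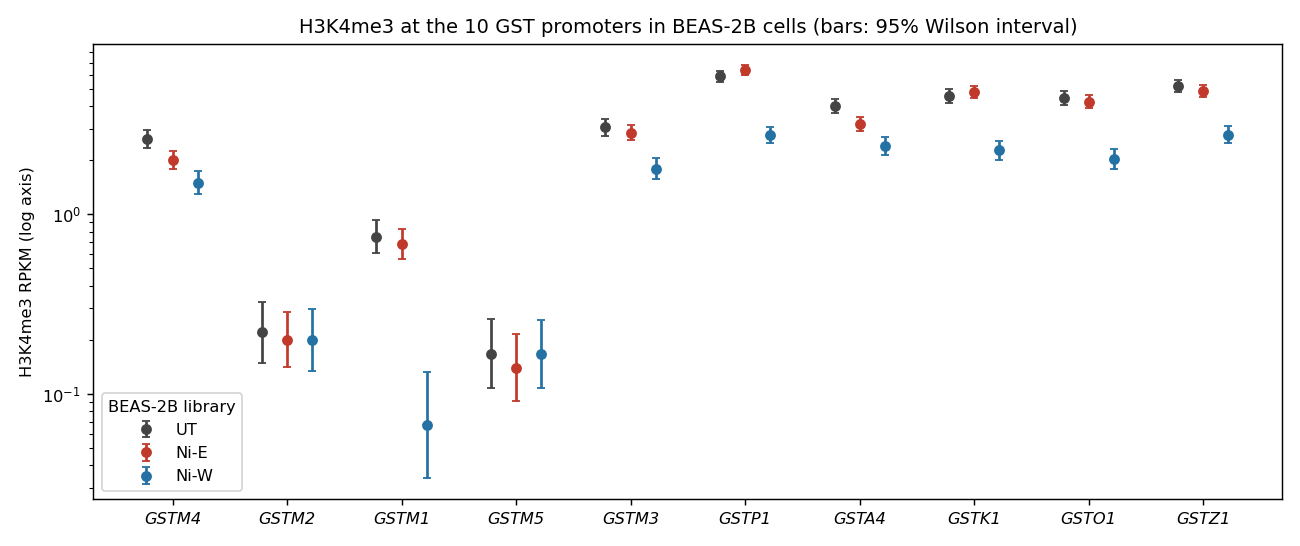
H3K4me3 at the 10 GST promoters (RPKM, log axis) in the UT, Ni-E and Ni-W libraries of BEAS-2B cells, with points for the value and bars for the 95% Wilson interval of the reads. GSTM1 drops from 0.749 and 0.687 to 0.067 RPKM in the Ni-W library, while GSTM2 is low throughout, at 0.20 to 0.22 RPKM.

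GSTP1 had the highest H3K4me3 of the 10 members in UT and Ni-E cells, with 5.86 RPKM from 665 reads in UT, 6.39 from 959 reads in Ni-E and 2.76 from 331 reads in the Ni-W library. Its scaled log2 ratio was 0.30 (0.16 to 0.45) for Ni-E to UT, -0.60 (-0.79 to -0.40) for Ni-W to UT and -0.90 (-1.08 to -0.72) for Ni-W to Ni-E. GSTO1 had 4.46, 4.25 and 2.04 RPKM, with -0.64 for Ni-W to UT and -0.75 for Ni-W to Ni-E. GSTK1 had 4.56, 4.79 and 2.27 RPKM, with -0.52 and -0.77. GSTZ1 had 5.19, 4.87 and 2.77 RPKM with -0.42 and -0.50, and its window also covers the start of POMT2, whose gene lies 153 bases away. POMT2 had the same RPKM and the same reads in every library (589, 730 and 332). The value therefore cannot be assigned to GSTZ1 rather than POMT2. GSTA4 had 4.01, 3.17 and 2.39 RPKM with -0.26 and -0.10.

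Of the 9 members with at least 25 reads, 0 passed a 1.5-fold change between Ni-E and UT cells, where 13.2% of all promoters did (11.5% higher and 1.64% lower). Between Ni-W and UT cells 3 passed (GSTM1, GSTP1 and GSTO1), all lower, beside 33.2% of all promoters in either direction and 14.5% lower. Between Ni-W and Ni-E cells 4 passed (GSTM1, GSTP1, GSTK1 and GSTO1), all lower, beside 38.3% in either direction with 12.7% higher and 25.5% lower. The shares among the members rest on few promoters. GSTP1 (1.51-fold) and GSTO1 (1.56-fold) lay just past the threshold in Ni-W against UT cells, and GSTK1 (1.43-fold) just inside it. The split of all promoters depended on the scaling: in Ni-W against UT cells 18.6% were higher and 14.5% lower with it, and 8.95% higher and 52.6% lower without it. Without scaling 61.6% of all promoters and 8 of 9 members passed 1.5-fold, all 8 lower, and after quantile normalization GSTM1 alone passed. The median log2 ratio of Ni-W to UT was -0.42 over the 9 members and -0.14 over all 23802 promoters. Among promoters with at least 100 reads in any library it was -0.47 over 8 members and -0.31 over all. The split depended on this read minimum too. Of about 14650 such promoters 754 were higher and 2666 lower in Ni-W against UT cells, and of the 8 members 0 and 3. In Ni-W against Ni-E cells 672 were higher and 4415 lower, and of the 8 members 0 and 4. After quantile normalization the medians were -0.15 over the 9 members and -0.06 over all promoters.

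**Figure D4:**
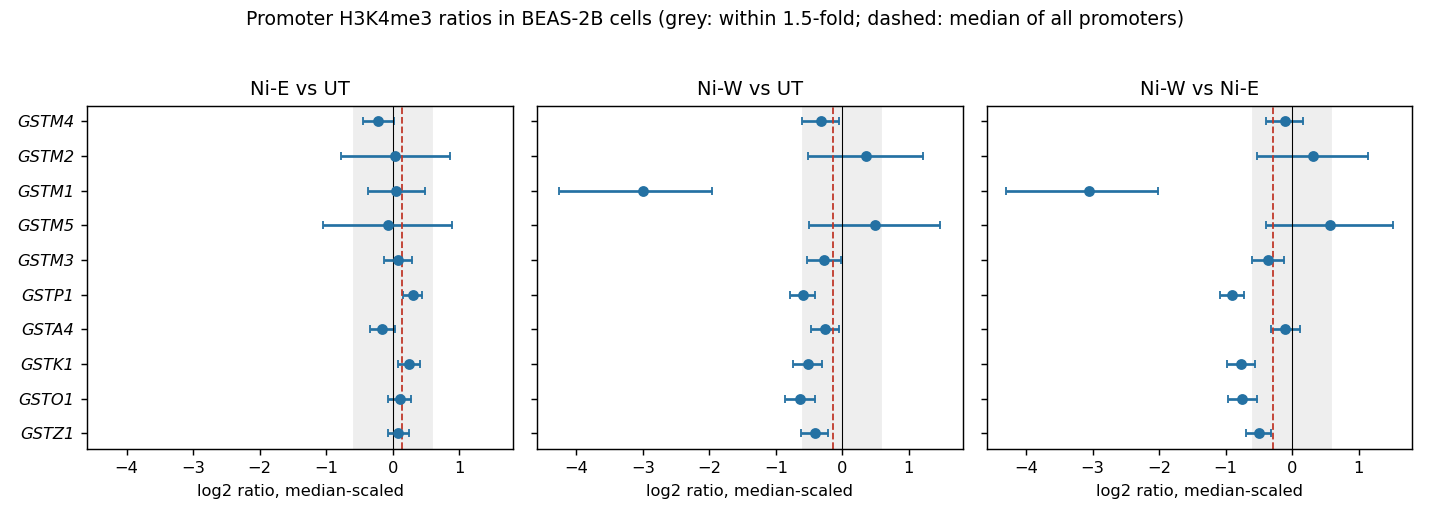
Median-scaled log2 ratio of H3K4me3 (x axis) at the 10 GST promoters (y axis) in the 3 comparisons of BEAS-2B libraries, with 95% counting intervals, the range within 1.5-fold in grey and the median of all promoters as a dashed line. GSTM1 stands at -2.996 and -3.05 in the comparisons with Ni-W cells, and the other members with at least 25 reads lie between -0.90 and 0.35.

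Of the other glutathione genes, 55 of 63 had at least 25 reads, and 5 were higher and 11 lower by at least 1.5-fold in Ni-W than in UT cells, where 18.6% of all promoters were higher and 14.5% lower (52.6% lower without scaling). In the NRF2 system 4 of 8 promoters were lower (KEAP1, HMOX1, TXNRD1 and SRXN1, at -0.60 to -0.74 on the log2 scale), all 4 close to the 1.5-fold threshold, and the other 4 did not pass. GPX8 was higher, with 3.21 RPKM in UT, 2.41 in Ni-E and 5.45 in Ni-W cells (scaled log2 1.25 for Ni-W to UT). GSTO2, the neighbour of GSTO1 and the second omega class gene, was lower at -0.61, and LAP3, PTGES and GPX4 were lower as well. In Ni-W against Ni-E cells 2 of the 55 were higher and 14 lower, 6 of them in the NRF2 system, where 12.7% of all promoters were higher and 25.5% lower, so that the share that was lower did not stand apart from that of all promoters. The median log2 ratio of Ni-W to UT over the 55 promoters was -0.33.

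In untreated cells the 2 lines could be set side by side for each member, as values of different assays. GSTP1 had the highest promoter H3K4me3 of the members in BEAS-2B cells and an RNA level of 0 in RT4 cells. Among 24657 genes listed for both lines, 7168 had at least the UT promoter level of GSTP1, and 294 of these (4.10%) were at 0 counts in all 6 RT4 libraries. GSTM1 (0.749 RPKM) and GSTM5 (0.167 RPKM) were low in BEAS-2B and at or near 0 TPM in RT4 cells, and GSTM2 was low in both (0.22 RPKM and 1.08 TPM). GSTA4 had 4.01 RPKM in BEAS-2B but 4.42 TPM in RT4 cells. GSTO1, GSTK1, GSTZ1, GSTM3 and GSTM4 had 2.63 to 5.19 RPKM in BEAS-2B and 40.2 to 260.2 TPM (mean of 2 libraries) in RT4 cells.

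**Figure D5:**
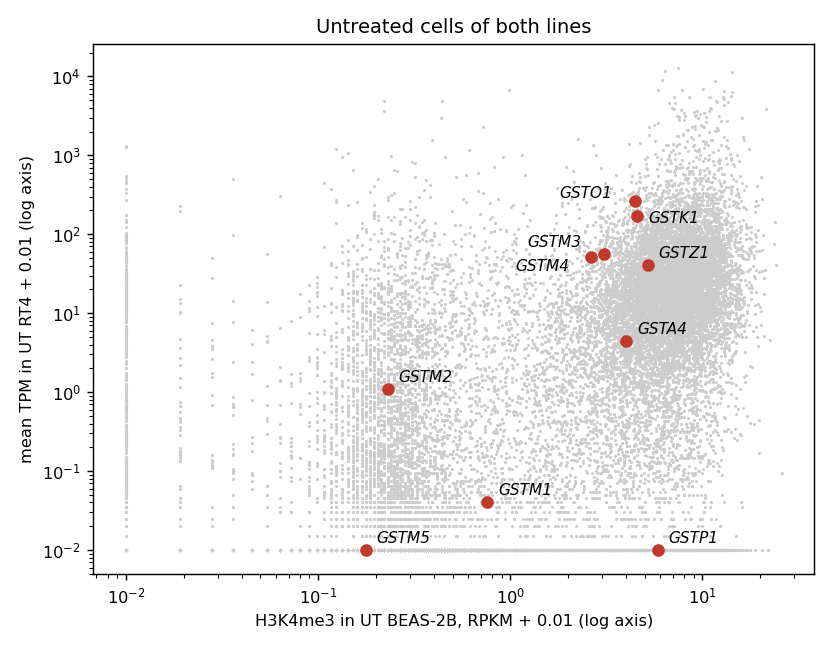
H3K4me3 in UT BEAS-2B cells (x axis, RPKM) against the mean TPM of UT RT4 cells (y axis), both on log axes after 0.01 was added, for the 24657 genes listed in both lines (grey) and the 10 GST genes (red). GSTP1 lies at 5.86 RPKM and 0 TPM, and GSTO1 at 4.46 RPKM and 260.2 TPM.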

How the data were processed

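RNA-Seq was analysed from 2 biological replicates of every RT4 group, and H3K4me3 ChIP-Seq from 1 table of every BEAS-2B condition; the ChIP input libraries and BEAS-2B RNA-Seq were not analysed here. For RNA the authors deposited RSEM expected counts, TPM and FPKM per gene. The methods of the study describe STAR alignment to hg19, whereas the submitters' processing notes name GRCh38, so that the build behind these counts is not settled. ChIP-Seq reads had been mapped to GRCh38 by BWA, with duplicates reduced to a single copy and without peak calling, and the authors deposited RPKM in the window 2 kb on each side of the transcription start. The methods of the study name 2 biological replicates for ChIP, and whether each table holds 1 of them or both pooled is not given in the sources used here. The start site chosen for each gene is not given in the sources used here.

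Expected counts were rounded (97.9% were already whole within 0.005) and tested with edgeR 4.0.16 (quasi-likelihood, TMM, filterByExpr) with a single model for the 3 groups and no block; genes with a Benjamini-Hochberg adjusted p below 0.05 and at least a 1.5-fold change were called. TPM describes levels, and FPKM entered no test. The replicate number comes from a duplicate suffix in the sample titles. Deviations from the group means of same-numbered libraries correlated at 0.658 (UT and Ni-E), 0.764 (UT and Ni-W) and 0.689 (Ni-E and Ni-W) over 14502 genes, so that the numbers were taken to pair the libraries and blocked values are given where they change a call. Reads per promoter were recovered from the RPKM step (100% whole multiples within 0.0006 RPKM). Ratios used promoters with at least 25 reads in any of the 3 libraries, and values under 3 reads were raised to the level of 3 reads.

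On simulated counts for Ni-E against UT (14502 genes, 200 changed), the fit without a block recovered 160 genes changed 4-fold (16 wrong calls) and 0 changed 2-fold; with a simulated replicate shift, the block recovered 182 changed 2-fold (4 wrong calls). Alternatives were DESeq2 1.42.0, limma 3.58.1 on log2(TPM + 1) or log2(TPM + 0.1), RLE, other filters, only the 2 groups compared, libraries left out in turn, and for ChIP-Seq no scaling, quantile normalization, added constants and other read minimums. Promoter sequences and positions are from RefSeq on GRCh38.p14, matched by symbol for 10 of 10 members, and transcripts from GENCODE. All 10 members are named; genes of the pathway lists are named where called in RT4 or past 1.5-fold with at least 100 reads in BEAS-2B, except that some of them are not reported here. The members and lists were chosen with earlier results of these data known.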

Additional observations from a re-analysis of the deposited data

How the results depend on the processing

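For GSTM3 and GSTM4 in RT4 cells all alternatives kept the direction of every fold change; the calls changed. Members called in Ni-E against UT cells (0 in the reported edgeR fit) were 2 with the replicate block and with DESeq2 (GSTM3 and GSTM4), and 1 (GSTM3) without a filter on low counts, with only the 2 groups compared, and with limma on log2(TPM + 1) and log2(TPM + 0.1). Leaving out 1 library gave 0 to 1, the 1 being GSTM3 without Ni-W replicate 1 or without Ni-W replicate 2. Over 15 alternatives the adjusted p of GSTM3 in this comparison ranged from 9.45e-05 to 0.479 and that of GSTM4 from 5.91e-04 to 0.676. The replicate block called 1 member in Ni-W against UT cells and 1 in Ni-W against Ni-E cells, and changed no other call of a member. Among all genes, the block called 1833 in Ni-E against UT cells (reported fit 314), 1243 in Ni-W against UT cells (87) and 655 in Ni-W against Ni-E cells (0). In the same order DESeq2 called 734, 437 and 139. Without a filter 193 were called in Ni-W against UT cells and 14 in Ni-W against Ni-E cells. At least 10 counts in every library gave 209 and 54 in the comparisons with UT cells. Only the 2 groups compared gave 0 in Ni-W against UT cells. limma on log2(TPM + 1), on log2(TPM + 0.1) and with TPM above 0 in any library called 170, 173 and 120 in Ni-E against UT cells, and on log2(TPM + 0.1) 11 in Ni-W against Ni-E cells. Leaving out 1 library gave 0 to 320 genes in Ni-E against UT cells, with 44 and 18 without UT replicate 1 and 2 and 0 without either Ni-E replicate, and 0 to 38 in Ni-W against UT cells. The reversed values in RT4 cells all came from leaving out 1 library and concerned GSTK1, GSTZ1, GSTO1 and GSTA4, none of them called. Their log2 ranges were -0.27 to 0.25 (GSTK1) and -0.049 to 0.31 (GSTZ1) in Ni-E against UT cells, -0.36 to 0.39 (GSTK1), -0.17 to 0.62 (GSTO1) and -0.53 to 0.36 (GSTZ1) in Ni-W against UT cells, and -0.20 to 1.01 (GSTA4), -0.32 to 0.43 (GSTK1), -0.45 to 0.34 (GSTO1) and -0.65 to 0.24 (GSTZ1) in Ni-W against Ni-E cells. Of the BEAS-2B promoters, 8 members passed 1.5-fold in Ni-W against UT cells without median scaling (3 in the reported setting), 1 after quantile normalization (GSTM1) and 1 with 1 RPKM added (GSTP1); in Ni-W against Ni-E cells quantile normalization left 1 (4). Without median scaling the log2 ratio of Ni-E to UT changed sign at the promoters of GSTM1, GSTM2, GSTM3, GSTO1 and GSTZ1. These ratios lay between 0.04 and 0.11 with scaling and between -0.14 and -0.07 without it. For GSTM2 the ratio of Ni-W to UT was 0.35 with scaling and -0.14 without it. The causes of these differences were not tested. With 2 libraries a group in RT4 and 1 a condition in BEAS-2B, replication limits the tests; few counts limit GSTM2, GSTA4 and the GSTM1 promoter in Ni-W cells.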
